A study of Mus musculus with 8 samples.

Results

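Cytochrome P450 families 1 to 4 hold most of the oxidising enzymes of the liver for drugs, fatty acids and steroids. The genes were chosen by name, as every spot whose accession belongs to a mouse gene named Cyp1, Cyp2, Cyp3 or Cyp4 followed by a letter, with no use of the measured signal. This gave 79 genes, covered by 99 probes, of 21368 named genes on the arrays, and 53 of them entered the test among 11072 genes. RNA came from isolated hepatocytes of male mice aged 12 to 14 weeks on standard diet, with 4 mice and 4 arrays per genotype. The paper's figure legend gives a smaller n for its hepatocyte expression data, and all labelled arrays were used here. In hCNR1-/- mice Alb-Cre, a recombinase driven by the albumin promoter and so active in hepatocytes, was bred onto the CNR1flox/flox allele of the cannabinoid 1 receptor (CB1R), and their strain is labelled CNRO Alb-Cre. The hCNR1+/+ mice were control littermates, labelled CNRO. No treatment is given for the mice.

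P450 enzymes are haem proteins of the endoplasmic reticulum that use electrons from NADPH, delivered by P450 reductase and cytochrome b5, to insert oxygen into a substrate. Many are induced by ligand-activated receptors: AhR for family 1, CAR and PXR for Cyp2b, Cyp2c and Cyp3a, and PPARalpha for Cyp4a. Several are concentrated in the hepatocytes around the central vein, and several differ between male and female liver.

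The 1 probe of Cnr1, the targeted gene, was not well above background on a single array of either genotype, so the genotype rests on the labels. All arrays lay on 1 slide with each genotype in a row of its own, and row and genotype cannot be told apart. The 75th percentile of the spot intensity ran from 62.0 to 139 on the hCNR1+/+ arrays and from 29.3 to 124 on the hCNR1-/- arrays, and replicate 4 was the dimmest array of each genotype. Each of the 20 hepatocyte markers passed the background test on all 8 arrays. Of 14 Kupffer cell markers 9 were tested and all 9 had a lower mean in hCNR1-/- samples, 1 of them at an adjusted p below 0.05, with an array mean of 1.58 to 2.85 in hCNR1+/+ and 0.51 to 1.48 in hCNR1-/- samples. Cd163, Fcgr1 and Timd4 of this list were on 0 arrays, and the part of other cells in the P450 values was not tested. In such samples fewer cells of a type and less RNA per cell cannot be told apart.

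The genotypes overlapped in 49 of the 53 tested P450 genes. Signals below are log2 values relative to the 75th percentile of the array, and a difference is the mean of the 4 hCNR1-/- arrays minus the mean of the 4 hCNR1+/+ arrays. At a Benjamini-Hochberg adjusted p below 0.05 limma called 0 of the 53 P450 genes lower and 0 higher, against 1.30% and 2.94% of all tested genes. At an unadjusted p below 0.05, 6 were lower and 3 higher, against 766 and 1628 of the 11072 genes. A fold above 2 together with an unadjusted p below 0.05 was met by 2 genes that were lower, Cyp3a16 and Cyp2c50, and by 0 that were higher. These shares stand beside 3.75% and 4.78% of all tested genes. In 4 genes, Cyp2c39, Cyp2c50, Cyp2j8 and Cyp3a57, every hCNR1-/- array lay below every hCNR1+/+ array, where 5.04% of all tested genes did so, and in 0 genes every hCNR1-/- array lay above, where 12.7% of all genes did so.

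By direction alone, 32 of the 53 differences were below 0 and 21 above. Their median was -0.17, beside 0.08 for all tested genes. Of the 21, 7 genes (Cyp2c67, Cyp2d34, Cyp2e1, Cyp3a11, Cyp3a13, Cyp4a10 and Cyp4a31) were below 0 on another probe. With that probe in its place 39 were below 0 and 14 above, with a median of -0.25. This count was made after the values had been seen. Only probes of opposite sign were exchanged, and each of the 7 exchanges lowered the value. Other probes of the same sign were not used, so this count gives no direction for the genes. When each array was dropped in turn, the sign changed in 16 of the 53 genes, and in 47 the sign changed or the value moved by over 1.5 times. The exceptions were Cyp2a12, Cyp2r1, Cyp3a11, Cyp3a16, Cyp3a57 and Cyp3a59. How many of all tested genes changed in these ways was not counted. The 50 P450 genes well above background on all 8 arrays had a median of -0.22, beside 0.14 for all genes of that kind. In 38 of the 53 genes the genotype means were less than 1 pooled SD apart. For 24 genes the 95% interval of the difference lay within a 2-fold change either way, and for the other genes it reached further.

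**Figure D1:**
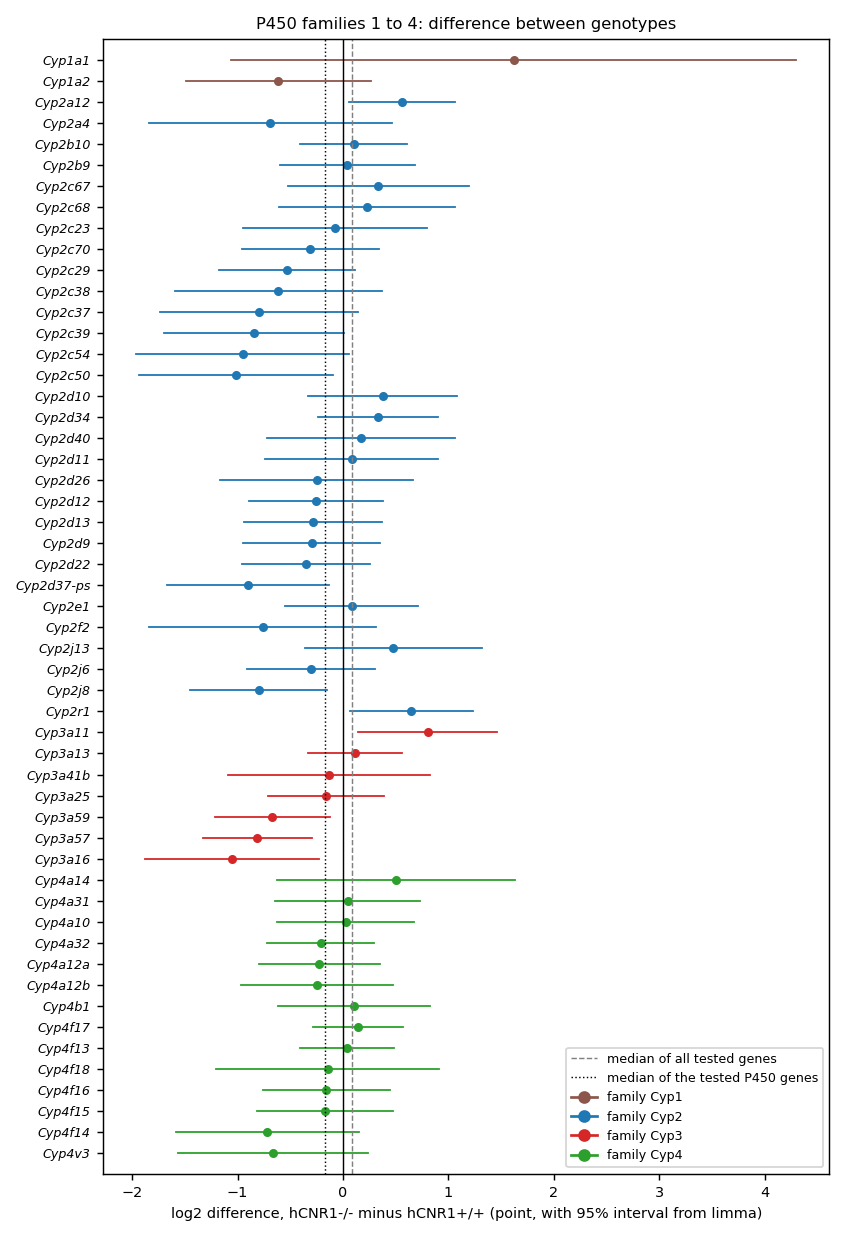
Log2 difference between hCNR1-/- and hCNR1+/+ hepatocytes for the 53 tested P450 genes, grouped by subfamily. Points are differences of means over 4 arrays per genotype, bars are 95% intervals from limma, and the dashed and dotted lines mark the medians of all tested genes (0.08) and of the P450 genes (-0.17). Most intervals cross 0, and the interval of Cyp1a1 is the widest.

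In family 1, which AhR controls, the genes Cyp1a1 and Cyp1a2 lie side by side on chromosome 9. Cyp1a2, an enzyme of the central hepatocytes that oxidises caffeine and aromatic amines, had signals of 3.26, 3.93, 4.27 and 5.20 on the hCNR1+/+ arrays, against 3.07, 3.66, 3.50 and 3.97 on the hCNR1-/- arrays, each in the order of replicates 1 to 4 as in all lists of 4 values below. The groups overlapped, with a difference of -0.62 (standard error 0.39, adjusted p = 0.397 from limma), which was -0.27 without hCNR1+/+ replicate 4. Cyp1a1, the classic inducible target of AhR, had -1.25, 0.72, 2.04 and -2.87 on the hCNR1+/+ arrays, against 1.54, 0.90, 3.84 and -1.15 on the hCNR1-/- arrays. It was well above background on 3 arrays of each genotype. Both genotypes held high and low mice, and the pooled SD of 2.11 was the 11th largest of all 11072 tested genes. The difference was 1.62 with a standard error of 1.20 and a 95% interval of -1.06 to 4.30. With 1 array left out it ran from 0.77 (without hCNR1-/- replicate 3) to 2.43 (without hCNR1-/- replicate 4). Cyp1b1 was well above background on 0 arrays. Ahr itself had a difference of -0.13 and its partner Arnt 0.32, with overlapping groups in both.

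The upstream sequence of Cyp1a1 is shown because it holds the core letters of the element that AhR binds. It is given for the 150 bases before the start listed in the RefSeq promoter table (chr9:57697463-57697612, + strand, GRCm38.p6). This start lies 9685 bases inside the annotated span of the gene, which begins further upstream. Capitals mark GCGTG, the core of the xenobiotic response element, and TATAAA, the TATA box.
Cyp1a1: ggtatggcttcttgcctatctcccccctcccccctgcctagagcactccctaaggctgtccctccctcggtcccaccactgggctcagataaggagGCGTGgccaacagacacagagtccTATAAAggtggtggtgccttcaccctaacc
The GCGTG core stands upstream of the TATA box. In the 250 bases before the listed starts, on either strand, GCGTG occurred in 17.4% of the windows of tested P450 genes and in 28.2% of all promoter windows, and TATAAA in 39.1% and 12.4%. Of the 79 genes 61 had a window in the table, 40 of them tested. Windows of closely related P450 genes are not independent.

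The Cyp2b genes and most Cyp2c genes are targets of CAR and PXR. Cyp2b10, the standard marker of CAR activity, had 9.82, 10.02, 9.32 and 9.35 on the hCNR1+/+ arrays, against 9.74, 9.86, 9.79 and 9.51 on the hCNR1-/- arrays. All 4 hCNR1-/- arrays lay inside the hCNR1+/+ range, and the difference was 0.10 (95% interval -0.41 to 0.61). Cyp2b9, which is female-biased in mouse liver, differed by 0.04 (95% interval -0.60 to 0.68). Neither Cyp2b gene had a sign that held under every scaling, with -0.27 for Cyp2b10 and -0.02 for Cyp2b9 after quantile normalization.

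The Cyp2c enzymes oxidise arachidonic and linoleic acid, retinoids and drugs, and the 10 tested genes lie on chromosome 19. Of these, 8 had a lower mean in hCNR1-/- hepatocytes, with a median of -0.57. Cyp2c50 had 4.62, 4.57, 4.74 and 6.0 on the hCNR1+/+ arrays, against 4.24, 4.18, 4.44 and 3.0 on the hCNR1-/- arrays. No hCNR1-/- value reached the hCNR1+/+ values, and in both genotypes replicate 4 lay far from the other 3 arrays, in opposite directions. The difference was -1.02 (standard error 0.41, adjusted p = 0.190 from limma). An exact two-sided permutation test gave p = 0.0286, the smallest that 4 against 4 arrays allow. Cyp2c54, an epoxygenase like Cyp2c50, had 4.63, 4.72, 4.87 and 6.09 against 4.13, 4.56, 4.82 and 3.01, and differed by -0.95. Cyp2c37 had 3.29, 3.43, 3.34 and 4.79 against 3.13, 3.09, 3.46 and 1.98, and differed by -0.80. Both show the same split of replicate 4, and their groups overlapped on these probes. On dimmer probes of Cyp2c54, each well above background on 7 arrays, the groups did not overlap, with differences of -1.20 and -1.57.

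Cyp2c39, a retinoic acid hydroxylase, had 1.88, 2.07, 1.95 and 3.54 on the hCNR1+/+ arrays, against 1.63, 1.67, 1.76 and 1.01 on the hCNR1-/- arrays. The groups did not overlap, and the difference was -0.84 (standard error 0.38, adjusted p = 0.237 from limma). Cyp2c29, a target of CAR, differed by -0.53 and Cyp2c38 by -0.61, with hCNR1+/+ replicate 4 highest in each. Cyp2c70, which makes muricholic acids from bile acids in mice, differed by -0.31 and the epoxygenase Cyp2c23 by -0.08. Cyp2c67 and Cyp2c68 were the 2 Cyp2c genes with a higher mean, at 0.34 and 0.23. In these, replicate 4 was the lowest hCNR1+/+ array and the highest hCNR1-/- array, the reverse of Cyp2c50.

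On the probes used for the genes, the size of the Cyp2c differences rested on replicate 4. hCNR1+/+ replicate 4 was the highest of its genotype in 8 of the 10 Cyp2c genes, beside 45.5% of all tested genes. hCNR1-/- replicate 4 was the lowest of its genotype in 5 of them, a share close to the 53.3% of all tested genes. Without hCNR1+/+ replicate 4 the difference of Cyp2c50 was -0.68, that of Cyp2c54 -0.61, that of Cyp2c39 -0.45, that of Cyp2c37 -0.44 and that of Cyp2c29 -0.25. Without hCNR1-/- replicate 4 Cyp2c50 was at -0.70, Cyp2c54 at -0.58 and Cyp2c37 at -0.49. With both arrays left out, a comparison chosen after the data had been seen, the subfamily median was -0.20, above those of Cyp2j (-0.46), Cyp2d (-0.30) and Cyp3a (-0.24). Then 9 of 10 Cyp2c genes were lower, and Cyp2c50 was at -0.36, Cyp2c67 at -0.19 and Cyp2c68 at -0.27. Probes of these closely related genes may pick up each other's transcripts, so the single names are uncertain.

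The upstream sequences of Cyp2c37 and Cyp2c50, which moved together over the arrays, are shown beside that of Cyp2c67, which moved the other way on replicate 4. They are the 150 bases before the starts in the RefSeq promoter table, 5′ to 3′ on the gene's strand (GRCm38.p6), at chr19:39992274-39992423 (+ strand), chr19:40089529-40089678 (+ strand) and chr19:39649043-39649192 (- strand). The stretches of Cyp2c37 and Cyp2c50 end where the annotated gene begins, and the last 37 bases of the Cyp2c67 stretch lie inside the annotated span of that gene. Capitals mark CAAAGTC, part of the site preferred by the liver factor HNF4alpha, and TATAAA.
Cyp2c37: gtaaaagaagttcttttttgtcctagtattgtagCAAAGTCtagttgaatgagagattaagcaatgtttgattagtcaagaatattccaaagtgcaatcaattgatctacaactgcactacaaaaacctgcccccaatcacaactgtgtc
Cyp2c50: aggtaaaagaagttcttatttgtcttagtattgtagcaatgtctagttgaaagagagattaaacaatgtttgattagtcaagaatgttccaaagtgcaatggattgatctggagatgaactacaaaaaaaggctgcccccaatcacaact
Cyp2c67: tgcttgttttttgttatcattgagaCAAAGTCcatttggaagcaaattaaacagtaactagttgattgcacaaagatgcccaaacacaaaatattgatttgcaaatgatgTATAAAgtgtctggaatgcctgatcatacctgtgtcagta
Over the 250 upstream bases Cyp2c37 and Cyp2c50 were 84.3% identical, and Cyp2c67 shared 62.6% and 61.6% with them. CAAAGTC, searched on both strands, was found upstream of Cyp2c37 and Cyp2c67, and was not in the window of Cyp2c50. It occurred in 28.3% of the windows of tested P450 genes and in 3.84% of all promoter windows. The 12 tested genes with it include close relatives, such as Cyp3a16 and Cyp3a41b with 91.7% identity, so these windows are not independent. Hnf4a had a difference of -0.38 with overlapping groups.

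**Figure D2:**
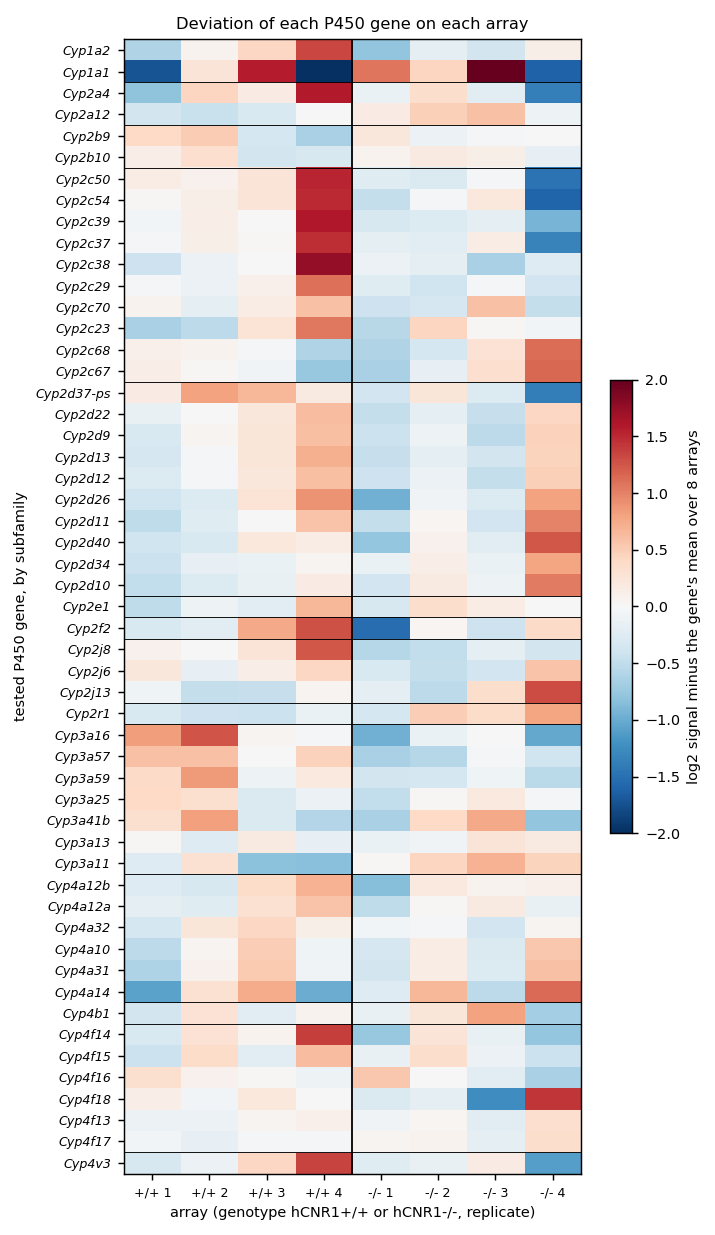
Deviation of the log2 signal on each array from the gene's mean over 8 arrays, for the 53 tested P450 genes by subfamily (colours end at -2 and 2, and Cyp1a1 goes beyond them). Columns are hCNR1+/+ and hCNR1-/- replicates 1 to 4. Replicate 4 is red in hCNR1+/+ and blue in hCNR1-/- for Cyp2c50, Cyp2c54, Cyp2c39 and Cyp2c37, and red in both genotypes for most Cyp2d genes.

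Cyp3a genes, which lie on chromosome 5 with Cyp3a13 apart from the others, encode the broad drug and steroid oxidases under PXR. Of 7 tested genes 5 had a lower mean in hCNR1-/- hepatocytes, with a median of -0.16. The other 2, Cyp3a11 and Cyp3a13, were lower on a dimmer probe, and with that probe all 7 were below 0, with a median of -0.67. This exchange was made after the values had been seen, lowered both values and gives no direction for these genes. In Cyp3a13 the gap between the probes overlapped between genotypes (exact two-sided permutation test, p = 0.343). Probes of the related Cyp3a genes may also pick up each other's transcripts, so the single names are uncertain. Cyp3a16, a form typical of fetal and female liver, had the largest negative difference of all 53 genes. Its signals were 1.66, 2.09, 0.89 and 0.79 on the hCNR1+/+ arrays, against -0.13, 0.69, 0.83 and -0.19 on the hCNR1-/- arrays. Of the hCNR1-/- arrays 1 lay above the lowest hCNR1+/+ array, and the difference was -1.06 (standard error 0.37, adjusted p = 0.136 from limma). Cyp3a57 had 0.72, 0.72, 0.12 and 0.58 against -0.51, -0.44, 0.11 and -0.26. The groups did not overlap, although replicates 3 of both genotypes were close. Its difference of -0.81 (standard error 0.23) had the lowest adjusted p of the 53 genes, 0.0788 from limma, and ran from -0.95 to -0.73 with 1 array left out at a time. Cyp3a59 had 1.36, 1.83, 0.88 and 1.18 against 0.61, 0.62, 0.90 and 0.44, a difference of -0.67 (adjusted p = 0.151 from limma). Unlike the Cyp2c genes, Cyp3a16, Cyp3a57 and Cyp3a59 kept nearly the same difference without replicate 4 of both genotypes, at -1.08, -0.80 and -0.65.

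Cyp3a11, the major mouse Cyp3a drug oxidase and the standard PXR target, went the other way on its brightest probe. Its signals were 4.21, 4.76, 3.64 and 3.63 on the hCNR1+/+ arrays, against 4.49, 4.90, 5.15 and 4.90 on the hCNR1-/- arrays, a difference of 0.80 (standard error 0.29, adjusted p = 0.154 from limma). Of the hCNR1+/+ arrays 1 lay within the hCNR1-/- range. A dimmer probe of the same gene, also well above background on all 8 arrays, had 2.08, 2.45, 1.24 and 0.88 on the hCNR1+/+ arrays, against 0.46, 0.66, 0.98 and 0.67 on the hCNR1-/- arrays, a difference of -0.97. The signal of this probe minus that of the brightest ran from -2.75 to -2.13 on hCNR1+/+ arrays and from -4.24 to -4.04 on hCNR1-/- arrays, with no overlap (exact two-sided permutation test, p = 0.0286). No direction is therefore given for Cyp3a11, and the mean of its probes differed by -0.08. Cyp3a13, Cyp3a25 and Cyp3a41b differed by 0.11, -0.16 and -0.14, with overlapping groups. Nr1i2, which encodes PXR, had 2.49, 2.30, 2.44 and 2.33 against 2.13, 2.06, 2.12 and 1.71, a difference of -0.39 without overlap (adjusted p = 0.269 from limma). Nr1i3, which encodes CAR, differed by -0.10.

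The upstream sequences of 4 Cyp3a genes show which of these copies are close relatives. They are the 150 bases before the starts that the RefSeq promoter table lists for Cyp3a11 (chr5:145879855-145880004, - strand), Cyp3a16 (chr5:145469724-145469873, - strand), Cyp3a57 (chr5:145345119-145345268, + strand) and Cyp3a59 (chr5:146079108-146079257, + strand), 5′ to 3′ on the gene's strand (GRCm38.p6), with CAAAGTC and TATAAA in capitals. The Cyp3a11 stretch ends where the annotated gene begins, while the last 17 bases for Cyp3a16, 50 for Cyp3a59 and 120 for Cyp3a57 lie inside the annotated span of the gene.
Cyp3a11: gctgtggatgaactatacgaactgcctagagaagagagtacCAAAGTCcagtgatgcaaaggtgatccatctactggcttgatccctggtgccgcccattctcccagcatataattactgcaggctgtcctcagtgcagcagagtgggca
Cyp3a16: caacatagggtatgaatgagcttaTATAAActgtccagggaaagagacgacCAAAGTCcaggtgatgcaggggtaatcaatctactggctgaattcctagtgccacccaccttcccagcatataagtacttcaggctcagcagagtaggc
Cyp3a57: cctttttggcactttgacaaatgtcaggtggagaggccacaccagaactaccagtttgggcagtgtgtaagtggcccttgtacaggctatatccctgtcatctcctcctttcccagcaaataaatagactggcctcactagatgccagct
Cyp3a59: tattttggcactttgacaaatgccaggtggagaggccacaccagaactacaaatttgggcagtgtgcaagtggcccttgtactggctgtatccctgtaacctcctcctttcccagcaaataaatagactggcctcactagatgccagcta
Cyp3a57 and Cyp3a59 were 90.1% identical over the 250 upstream bases and Cyp3a16 and Cyp3a41b 91.7%, while Cyp3a11 shared 76.6% with Cyp3a16 and 55.1% with Cyp3a57. CAAAGTC stands in the shown stretch of Cyp3a11 and Cyp3a16, and it was not in the windows of Cyp3a57 and Cyp3a59. The genotype difference was -1.06 for Cyp3a16 and -0.14 for Cyp3a41b.

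**Figure D3:**
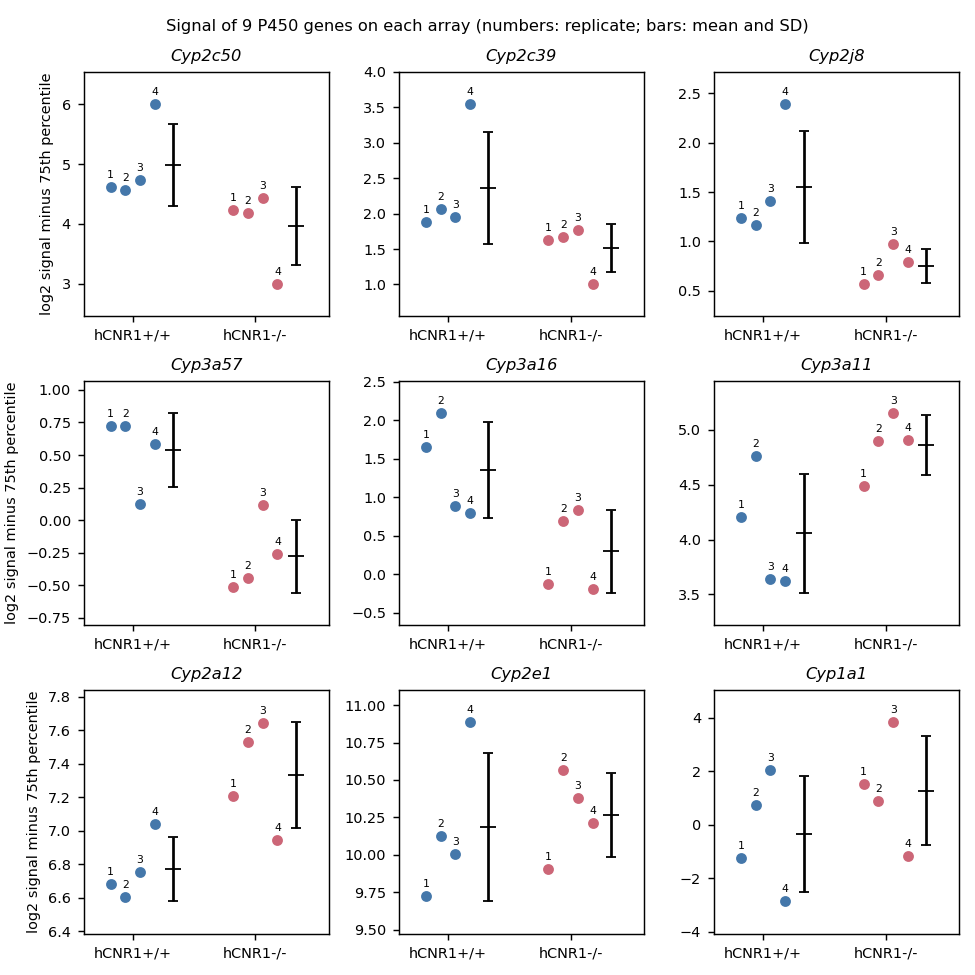
Log2 signal relative to the 75th percentile of the array for 9 P450 genes in each hCNR1+/+ and hCNR1-/- mouse, with the replicate number beside each point and the mean and SD (n = 4) as bars. The vertical scale differs between panels. The genotypes are apart in Cyp2c50, Cyp2c39, Cyp2j8 and Cyp3a57, and Cyp1a1 spreads from -2.87 to 3.84.

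Probes of one gene gave different directions in several other P450 genes. A second probe well above background on all 8 arrays existed in 10 members, giving 11 pairs, and in 8 of the 11 the difference between genotypes had opposite signs. In 4 pairs, those of Cyp2c67, Cyp2d34, Cyp2e1 and Cyp3a11, the gap between the probes did not overlap between genotypes, each with p = 0.0286 in an exact two-sided permutation test and 0.0786 after Benjamini-Hochberg adjustment over the 11 pairs. These pairs were looked at after the values had been seen. Probe pairs of all genes were not counted, so these counts show nothing particular to the P450 genes. In every pair except that of Cyp2c37 the less bright probe had the lower difference. Among all tested genes, the 834 with the brightest probes had a median of 0.30, with 647 above 0 and 187 below. The median of all 11072 was 0.08. Whether brightness sets the gap between probes was not tested. Cyp2d34 had 0.33 on the brightest and -0.31 on the other probe, and Cyp2c67 had 0.34 and -0.10. Both probes of Cyp2r1, Cyp2a4 and Cyp2c37 had the same sign.

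**Figure D4:**
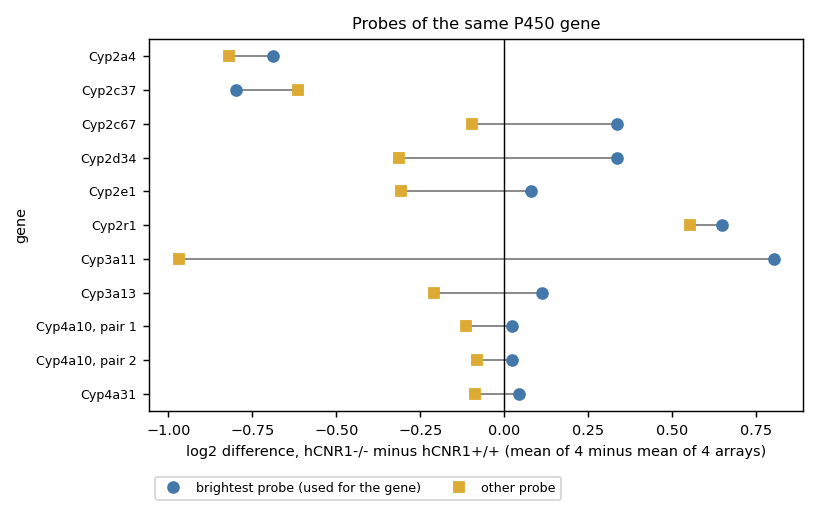
Log2 difference between hCNR1-/- and hCNR1+/+ hepatocytes on the brightest probe (circle) and on another probe (square) of the same P450 gene, for the 11 pairs in which both were well above background on all 8 arrays. The line joins the probes of a pair. The probes of Cyp3a11 lie farthest apart, at 0.80 and -0.97.

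Cyp2e1 and Cyp2f2 mark opposite ends of the liver lobule. Cyp2e1, which oxidises ethanol and acetaminophen in central hepatocytes, had 9.72, 10.13, 10.01 and 10.89 on the hCNR1+/+ arrays, against 9.91, 10.57, 10.38 and 10.21 on the hCNR1-/- arrays. The hCNR1-/- arrays lay within the hCNR1+/+ range, and the difference was 0.08 (95% interval -0.55 to 0.71) on this probe and -0.31 on the other. After quantile normalization the first was -0.24. Cyp2f2, a periportal enzyme that oxidises naphthalene, had 8.24, 8.35, 9.31 and 9.83 against 7.02, 8.59, 8.13 and 8.94, a difference of -0.76 (standard error 0.48, adjusted p = 0.395 from limma) with overlapping groups. This was -0.46 without hCNR1+/+ replicate 4 and -0.38 without hCNR1-/- replicate 1. The 7 tested genes of a list of central P450s ran from -1.02 to 0.80 with a median of -0.62. Its 2 values above 0 were those of Cyp3a11 and Cyp2e1. With their other probes the list ran from -1.02 to -0.31 with a median of -0.80. This exchange was made after the values had been seen and only where probes had opposite signs. It lowered both values, and the other probe of Cyp2c37, at -0.61 and so of the same sign, was not used. Outside the P450s, 1 of 10 tested central genes fell at an adjusted p below 0.05 in limma, Slc1a2 by 1.58, and 0 rose, with a list median of -0.21. Of 13 tested periportal genes 2 fell, Hal by 1.23 and Hsd17b13 by 1.59, and 0 rose, with a list median of -0.76. Of all tested genes 1.30% were lower and 2.94% higher at this threshold, with a median of 0.08. Every hCNR1-/- array lay below every hCNR1+/+ array in 5 of the 13 periportal and 2 of the 10 central genes. This was so in 5.04% of all tested genes.

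Among steroid hydroxylases, the Cyp2d genes on chromosome 15 and the Cyp2a genes on chromosome 7 overlapped between genotypes throughout. The 10 Cyp2d genes had a median of -0.25, with 6 lower and 4 higher. Cyp2d9, a male-biased testosterone hydroxylase, had 7.15, 7.51, 7.70 and 8.07 against 7.02, 7.36, 6.93 and 7.93, a difference of -0.30. Replicate 4 was the highest array of its genotype in 8 of these 10 genes in hCNR1+/+ (45.5% of all tested genes) and in 9 in hCNR1-/- (27.6%). In all 10 genes hCNR1+/+ replicate 1 was the lowest of its genotype (24.7% of all tested genes). Cyp2d37-ps, a pseudogene, differed from them in replicate 4, with 3.38, 4.02, 3.88 and 3.40 against 2.84, 3.46, 2.96 and 1.83 and a difference of -0.90 (adjusted p = 0.168 from limma), which was -0.59 without hCNR1-/- replicate 4. Cyp2d10 differed by 0.38, and Cyp2d34 by 0.33 on its brightest and -0.31 on its other probe.

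Cyp2a12, a steroid and bile acid hydroxylase, had 6.68, 6.60, 6.75 and 7.04 on the hCNR1+/+ arrays, against 7.21, 7.53, 7.64 and 6.94 on the hCNR1-/- arrays. Only hCNR1-/- replicate 4 lay within the hCNR1+/+ range. The difference was 0.56 (standard error 0.22, adjusted p = 0.184 from limma), and without hCNR1-/- replicate 4 it was 0.69 with an adjusted p of 0.0418 from limma. Leaving out that array raised the genes called higher from 325 to 1121 of all 11072. Cyp2a4, a female-biased testosterone hydroxylase, differed by -0.69, with hCNR1+/+ arrays from 5.60 to 8.0 and hCNR1-/- arrays from 5.04 to 6.77. It was -0.27 without hCNR1+/+ replicate 4, -0.35 without hCNR1-/- replicate 4 and 0.07 without both, so its direction rested on these arrays. Its probes may also read Cyp2a5, a near-identical copy that was not analysed here. Of the lists of sex-biased P450s, the 3 tested male-biased genes lay between -0.30 and -0.22, and the 4 tested female-biased genes between -1.06 and 0.04.

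The Cyp2j enzymes make epoxides from arachidonic acid. Cyp2j8 had 1.24, 1.16, 1.41 and 2.39 on the hCNR1+/+ arrays, against 0.57, 0.67, 0.98 and 0.79 on the hCNR1-/- arrays. Every hCNR1-/- array lay below every hCNR1+/+ array, and the difference was -0.80 with a standard error of 0.29 (adjusted p = 0.151 from limma). Without replicate 4 of both genotypes it was -0.53. Cyp2j6 differed by -0.30 and Cyp2j13 by 0.48, both with overlap. Cyp2r1, the vitamin D hydroxylase of the liver, had 2.41, 2.30, 2.28 and 2.58 against 2.37, 3.21, 3.08 and 3.51. Of the hCNR1-/- arrays 3 lay above all hCNR1+/+ arrays, and the difference was 0.65 (standard error 0.26, adjusted p = 0.189 from limma), with 0.55 on its other probe.

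Cyp4a enzymes hydroxylate the omega end of fatty acids and are the textbook targets of PPARalpha. The 6 tested Cyp4a genes, neighbours on chromosome 4, ran from -0.25 to 0.50 with a median of -0.09, and 0 of them had an unadjusted p below 0.05 in limma. Cyp4a10 had 3.63, 4.20, 4.65 and 4.06 on the hCNR1+/+ arrays, against 3.80, 4.29, 3.85 and 4.69 on the hCNR1-/- arrays. Its difference was 0.02 (95% interval -0.62 to 0.67), its sign changed with the scaling, and 3 of the 4 hCNR1-/- values lay within the hCNR1+/+ range. Cyp4a14, the most inducible of the group, had 2.40, 3.79, 4.22 and 2.49 against 3.22, 4.13, 2.94 and 4.61, a difference of 0.50 (95% interval -0.63 to 1.64). The spread between mice of one genotype was wider than the gap between genotypes. Cyp4a12a, a male-biased omega-hydroxylase, differed by -0.22 and its near copy Cyp4a12b by -0.25. Ppara itself differed by 0.03. Cyp4a10, Cyp4a31 and Cyp4a32 are close copies whose probes may not tell them apart.

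Cyp4f enzymes inactivate leukotrienes, and 6 of them were tested, with a median of -0.15. Cyp4f14 had 5.17, 5.75, 5.54 and 6.85 on the hCNR1+/+ arrays, against 4.71, 5.73, 5.32 and 4.69 on the hCNR1-/- arrays, a difference of -0.72 (standard error 0.39, adjusted p = 0.317 from limma) with overlap. It was -0.38 without hCNR1+/+ replicate 4 and -0.24 without both replicates 4. Cyp4f13 and Cyp4f17 were among the tightest P450 genes between mice, with pooled SDs of 0.19 and 0.16 and differences of 0.04 (95% interval -0.41 to 0.48, its sign changing with the scaling) and 0.14 (95% interval -0.29 to 0.57). Cyp4f18 ranged from -0.58 to 2.09 in hCNR1-/- mice alone. Cyp4v3, a fatty acid hydroxylase, differed by -0.66, with hCNR1+/+ replicate 4 highest and hCNR1-/- replicate 4 lowest of its genotype, and by -0.07 without both. Cyp4b1 differed by 0.10.

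The proteins that serve every P450 supply electrons and haem, and 0 of their tested genes passed the adjusted threshold in limma. In haem breakdown 1 gene passed. Of 7 tested electron donors and membrane partners limma called 0 at an adjusted p below 0.05, with 1 lower and 1 higher at an unadjusted p below 0.05. Por, the P450 reductase, had 8.63, 8.90, 9.03 and 9.49 against 8.93, 9.32, 9.28 and 9.52, a difference of 0.25, and Cyb5a, cytochrome b5, differed by -0.66, both with overlap. Pgrmc1, a haem-binding partner of P450s, had 6.14, 5.72, 6.05 and 6.15 against 5.60, 5.40, 5.54 and 5.47, a difference of -0.51 without overlap (adjusted p = 0.158 from limma). Of 8 haem synthesis genes 0 passed the adjusted threshold in limma and 1 had an unadjusted p below 0.05. This was Alas1, the rate-limiting enzyme, with 8.19, 8.21, 9.12 and 9.49 against 7.41, 7.98, 8.01 and 7.73 and a difference of -0.97 (adjusted p = 0.128 from limma). Of 4 haem breakdown genes 1 passed, Blvrb, a biliverdin reductase, which rose by 1.15 (adjusted p = 0.0481 from limma). Of the 12 tested xenobiotic and lipid receptors and their partners 0 passed in limma, and 1 of them, Nr1h3, had an unadjusted p below 0.05 with a difference of 0.56.

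The other 26 P450 genes were not tested, with 18 well above background on 0 arrays, 6 on 1 array and 2 on 2 arrays. The last 2 were Cyp2c55, on 2 hCNR1+/+ and 0 hCNR1-/- arrays, and Cyp2t4, on 1 array of each genotype. Cyp2b13, Cyp2b23, Cyp2j11, Cyp2j9, Cyp2s1 and Cyp2u1 were on 1 array. Those on 0 arrays were Cyp1b1, Cyp2a22, Cyp2ab1, Cyp2b19, Cyp2c65, Cyp2c66, Cyp2g1, Cyp2j5, Cyp2w1, Cyp3a44, Cyp4a29, Cyp4a30b, Cyp4b1-ps2, Cyp4f37, Cyp4f39, Cyp4f40, Cyp4f41-ps and Cyp4x1. They have no value for the difference here. The share tested, 67.1% of the P450 genes, compares with 51.8% of all named genes.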

How the data were processed

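Hepatocyte RNA of 8 mice was measured on 1-colour Agilent arrays with the dye Cy3, 1 array per mouse. The authors deposited for each spot an intensity from Feature Extraction 12.0.3.1, background-corrected within the array and not scaled between arrays, and flags (other columns) for spots well above background, saturated or outlying. A deposited score per spot differed by at most 0.005 from the array's own z-scored log values. Here each array's 75th percentile over its 59305 non-control spots was taken off the log2 intensities. Outlying spots were dropped and spots of a probe averaged. Accessions were named through RefSeq (GRCm38.p6), and as the build of the array is older, the only coordinates given are those of the RefSeq upstream windows. A gene was represented by its brightest probe well above background, in at least 50% of its spots, on at least 4 of 8 arrays. The two-sided test was limma 3.58.1 (lmFit, eBayes) in R 4.3.3, with Benjamini-Hochberg adjustment over 11072 genes. For single genes an exact permutation test went through all 70 assignments. The fit was tested on simulated data. Genes to be named were those with an adjusted p below 0.05, the 6 highest and 6 lowest differences and a list of textbook members; others named were chosen after their values were seen. The naming rule for the members used no measured signal, but the rule and the lists were set with earlier results of these data known. Alternatives were other scalings, the deposited scores, background correction, filters, probe means, variance models, array weights, a replicate block and single arrays left out; leaving out both replicates 4 was added after the data had been seen. The number of arrays limits the precision.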

Additional observations from a re-analysis of the deposited data

Results flagged for a closer look

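In 4 of 52 groups of 4 arrays, over the named P450 genes, 1 array lay apart from the other 3 by Dixon's ratio of its gap to the range of the group, where chance passes about 1 in 20 groups. In all 4 the array was hCNR1+/+ replicate 4, the dimmest array of its genotype, and the genes were Cyp2c. Cyp2c37 was at 4.79, against 3.29 to 3.43 in the other hCNR1+/+ mice (ratio 0.906). Cyp2c39 was at 3.54, against 1.88 to 2.07 (ratio 0.889). Cyp2c50 was at 6.0, against 4.57 to 4.74 (ratio 0.881). Cyp2c54 was at 6.09, against 4.63 to 4.87 (ratio 0.837). These genes are neighbours or near copies, so the 4 values are not independent. Among all 53 tested P450 genes this array was the highest of its genotype in 31, beside 45.5% of all tested genes. What set it apart was not tested.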

How the results depend on the processing

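With the adjusted threshold, 0 P450 genes were lower and 0 higher in limma, and array weights gave 4 lower (Cyp2d37-ps, Cyp2j6, Cyp2j8 and Cyp3a57) and 1 higher (Cyp2a12), where 5.83% and 19.7% of all genes were called. Leaving out hCNR1-/- replicate 4, or both replicates 4, gave 1 higher, Cyp2a12 (adjusted p = 0.0418 and 0.0195), where 10.1% and 15.4% of all genes were called higher. Genes at a fold above 2 and an unadjusted p below 0.05, 2 lower and 0 higher, became 4 lower with quantile normalization, 4 with the deposited scores, 6 without scaling, 0 with median scaling, 1 with normexp, 0 with array weights and 1 without both replicates 4. With 1 array left out they ran from 0 to 3 lower and from 0 to 1 higher, and the adjusted counts from 0 to 0 and from 0 to 1. By the fold rule 3.75% of all tested genes were lower and 4.78% higher in the main fit. Under the alternatives that share was not counted, so these fold counts show nothing particular to the P450 genes. The median of -0.17 was -0.72 without scaling, where that of all genes was -0.47, and ran from -0.31 to -0.07 with 1 array left out. Over all tested genes the replicate numbers, which are slide columns, did not pair the arrays, with correlations of deviations of 0.21, -0.16, -0.05 and 0.02. The median deviation of the P450 genes from their genotype mean was -0.31, -0.09, 0.04 and 0.27 on the hCNR1+/+ arrays. On the hCNR1-/- arrays it was -0.28, 0.09, 0.11 and 0.04. For all tested genes it was 0.0018 and 0.078 on replicate 1 of each genotype. A slide column effect on the P450 genes was not tested. The replicate block gave 0 lower and 0 higher at the adjusted threshold, as for all genes, and 1 lower (Cyp3a16) and 1 higher (Cyp1a1) at a fold above 2.

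Several differences changed sign, the largest of them that of Cyp3a11. Dropping the scaling moved every difference by the same -0.56, which turns any value between 0 and the size of this shift and says nothing of the single gene. Without scaling, Cyp2j13 was at -0.078, Cyp4a14 at -0.05, Cyp2b9 at -0.52, Cyp2b10 at -0.46, Cyp2e1 at -0.48, Cyp3a13 at -0.44, Cyp4a10 at -0.53 and Cyp4f13 at -0.52. With quantile normalization Cyp2b9 was at -0.018, Cyp2b10 at -0.27, Cyp2e1 at -0.24, Cyp4a10 at -0.094 and Cyp4f13 at -0.078. With median scaling Cyp2b9 was at -0.0069, Cyp4a10 at -0.023 and Cyp4f13 at -0.0077. With the deposited scores Cyp2b9 was at -0.052 and Cyp4a10 at -0.0086. With normexp Cyp2b9 was at -0.046, Cyp2b10 at -0.026, Cyp2e1 at -0.0051, Cyp4a10 at -0.025 and Cyp4f13 at -0.053. With the mean of probes Cyp3a11 was at -0.084, Cyp2e1 at -0.11, Cyp3a13 at -0.049 and Cyp4a10 at -0.058. With array weights Cyp4a14 was at -0.17, Cyp4a10 at -0.29 and Cyp4f13 at -0.055. Without both replicates 4 Cyp4a14 was at -0.036, Cyp2b9 at -0.17, Cyp4a10 at -0.18 and Cyp4f13 at -0.025. In all, 12 of the 53 genes changed sign there, 9 from higher to lower (also Cyp2c67, Cyp2c68, Cyp2d11, Cyp2d40 and Cyp4a31) and 3 from lower to higher (Cyp2a4 at 0.068, Cyp2c23 at 0.265 and Cyp4f15 at 0.12). With 1 array left out, Cyp2b9 ran from -0.17 to 0.21, Cyp2b10 from -0.0025 to 0.23, Cyp2e1 from -0.074 to 0.31, Cyp4a10 from -0.15 to 0.19 and Cyp4f13 from -0.067 to 0.12. Apart from the arrays left out, the cause was not tested.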
